A study of Mus musculus with 6 samples.

Results

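The protein disulfide isomerase family was followed through a knockdown of Copa in AY-mICC, a mouse line whose study concerns cholangiocarcinoma, a tumour of bile duct epithelium, in the liver. The members were 10 genes set by name: Pdia3, Pdia4, Pdia5, Pdia6, P4hb, Txndc5, Erp29, Erp44, Tmx1 and Tmx3. All 10 were found by symbol among the 55414 gene identifiers of the deposited table, and all 10 passed the filter on low counts. The groups were 3 libraries of cells with the genotype Copa knockdown (shCopa) and 3 libraries of cells with the genotype control (shCon). Both groups were the same cell line, kept in serum-containing DMEM with no further treatment. The titles carry the usual prefix of a short hairpin RNA; their sequences, and the number of hairpins or clones, are not given in the sources. The comparison asks which transcripts of the family differ when Copa, the alpha subunit of the COPI vesicle coat, is lowered.

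Disulfide isomerases are enzymes of the endoplasmic reticulum (ER) built from thioredoxin-like domains. They form, break and rearrange disulfide bonds in proteins that are being folded for secretion or for the cell surface. Most soluble members end in a KDEL-type signal that lets KDEL receptors of the Golgi send them back to the ER in COPI vesicles, and the TMX members are held in the membrane. Several family genes are known targets of the unfolded protein response, whose factors bind the ER stress response element (ERSE), a CCAAT box and a CCACG separated by a fixed gap.

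In shCopa cells 2 members fell, 1 rose and 7 did not pass the test. Pdia3 fell to 26.0% of its shCon level, Pdia4 fell to 65.6%, and Tmx1 rose 1.38-fold. P4hb, the most abundant member, did not pass, and neither did Pdia5, Pdia6, Txndc5, Erp29, Erp44 or Tmx3. Over all 14807 genes tested, 18.2% were called higher in shCopa and 18.4% lower, so the numbers of members called were near that background. Pdia3 had the largest change of the 10, and 1.28% of all genes tested had a lower log2 fold change.

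The stretches upstream of the transcription start are shown for the members called (Pdia3, Pdia4 and Tmx1) and for Pdia6, whose window held the ERSE. They were read from RefSeq's promoter table on GRCm38.p6, 250 bases each, 5′ to 3′ on the gene's strand and ending just before the start. Capitals mark a CCAAT box on either strand, which reads ATTGG when it lies on the other one.
Pdia3 (chr2:121413652-121413901, strand +): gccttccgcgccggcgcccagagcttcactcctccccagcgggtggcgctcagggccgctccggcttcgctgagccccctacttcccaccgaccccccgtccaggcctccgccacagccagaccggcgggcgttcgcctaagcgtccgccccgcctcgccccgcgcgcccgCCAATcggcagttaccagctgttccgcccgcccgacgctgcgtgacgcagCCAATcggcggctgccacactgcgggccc
Pdia4 (chr6:47813513-47813762, strand -): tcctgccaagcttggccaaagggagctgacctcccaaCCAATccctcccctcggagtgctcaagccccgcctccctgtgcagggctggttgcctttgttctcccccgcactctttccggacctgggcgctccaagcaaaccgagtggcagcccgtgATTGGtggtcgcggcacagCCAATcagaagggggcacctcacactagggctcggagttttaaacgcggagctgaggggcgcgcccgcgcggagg
Tmx1 (chr12:70452904-70453153, strand +): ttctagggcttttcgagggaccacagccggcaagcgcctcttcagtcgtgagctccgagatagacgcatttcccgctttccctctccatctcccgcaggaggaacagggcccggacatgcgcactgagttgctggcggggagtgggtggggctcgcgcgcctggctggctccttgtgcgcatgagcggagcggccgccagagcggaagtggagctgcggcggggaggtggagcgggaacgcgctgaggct
Pdia6 (chr12:17266339-17266588, strand +): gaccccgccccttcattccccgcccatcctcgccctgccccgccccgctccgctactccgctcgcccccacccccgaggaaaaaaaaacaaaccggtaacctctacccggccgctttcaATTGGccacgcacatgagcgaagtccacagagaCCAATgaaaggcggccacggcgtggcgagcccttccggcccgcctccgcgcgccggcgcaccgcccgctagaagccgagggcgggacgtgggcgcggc

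Pdia3 held 2 CCAAT boxes, Pdia4 held 3, Pdia6 held 2 and Tmx1 held 0. The table matched 8 of the 10 members, through 11 windows; Erp29 and Tmx3 were not matched. A CCAAT box was found for 5 of the 8 (Pdia3, Pdia4, Pdia6, P4hb and Erp44), which is 6 of the 11 member windows, against 33.8% of all 32851 windows. CCACG alone was found for 5 of the 8 (Erp44, P4hb, Pdia6, Txndc5 and Pdia5), in 7 of the 11 member windows, against 28.3% of all windows. The called members Pdia3, Pdia4 and Tmx1 were not among them. The full ERSE (CCAAT, then 9 bases, then CCACG, on either strand) was found for 1 member, Pdia6, at bases -98 to -80 from the start, and in 0.113% of all windows. Its surroundings, with the element in capitals, read as follows on the plus strand of GRCm38.p6.
Pdia6 (chr12:17266471-17266529): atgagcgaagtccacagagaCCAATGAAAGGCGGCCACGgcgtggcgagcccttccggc

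The same spacing with any base at the fourth position of CCACG, a search that contains the first, added no member (0.289% of all windows). ATTGG, 1 base, CCACG, known as ERSE-II, was found for 0 of the 8 members (0.0304% of windows). TGACGTGG, the core of the unfolded protein response element, was found for Txndc5 in 1 of its 3 windows (0.563% of all windows). These are matches of letters in a short window, and no binding was measured.

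Library totals ran from 19634876 to 24546142 rounded counts, so 3 counts, the floor used here, stood for 0.123 to 0.152 CPM (counts scaled to one common library size, with TMM factors). Copa was at 186, 182 and 187 CPM in shCopa 1 to 3, against 420, 517 and 527 CPM in shCon 1 to 3. Across genes, which are not independent replicates, shCon 1 correlated with shCon 2 and 3 at r = 0.9734 and 0.9719 on the log2 CPM scale, below the 0.9888 to 0.9907 among shCopa libraries and the 0.9898 of shCon 2 with shCon 3. Many of the results that rest on shCon 1, though not all, are therefore also given without it. The bile duct character implied by the series title was checked on 7 epithelial markers, of which Krt8, Krt18, Krt19 and Krt7 were abundant and Epcam was low, at 0.177 to 0.354 CPM in shCopa and 0.429 to 0.790 CPM in shCon. Of the 6 epithelial markers tested 4 fell (Krt7, Krt8, Krt18 and Cdh1), and the list summed to 3881 to 4102 CPM in shCopa, against 4960 to 5967 CPM in shCon. Hepatocyte markers summed to 22.8 to 24.2 CPM in shCopa, against 8.37 to 13.2 CPM in shCon, most of it Alb, with 0 counts of Cyp3a11 in every library. Of the 2 hepatocyte markers tested, Alb rose (log2 fold change 1.20 ± 0.15) and Ttr did not pass. Endothelial markers summed to 1.51 to 3.34 CPM in shCopa, against 0.0411 to 0.172 CPM in shCon, and Cdh5 had at most 2 counts in a library. Kdr, the only 1 of them tested, rose, with 26, 42 and 52 counts in shCopa 1 to 3, against 3, 1 and 1 in shCon 1 to 3 (log2 fold change 4.58 ± 0.57). Pecam1, too low to test, had 7, 7 and 14 counts in shCopa 1 to 3, against 0, 3 and 0 in shCon 1 to 3. Leukocyte markers summed to 15.0 to 16.4 CPM in shCopa, against 12.9 to 14.3 CPM in shCon, mostly Cd68. Ptprc had 21 to 25 counts in shCopa, against 0 to 1 in shCon, and Cd3e had at most 2 counts. Of the 2 leukocyte markers tested, Ptprc rose (log2 fold change 4.99 ± 0.57) and Cd68 did not pass. Fibroblast markers summed to 168 to 182 CPM in shCopa, against 184 to 223 CPM in shCon, nearly all of it Dcn. Of the 3 fibroblast markers tested, 1 fell (Pdgfrb, log2 fold change -1.66 ± 0.36) and 2 did not pass. The part of these marker shifts in the results below was not tested. In such bulk libraries fewer cells making a transcript and less RNA per cell cannot be told apart. No label says that replicates were separate cultures, so p-values reflect sample-to-sample spread that may be only technical.

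Pdia3 and Pdia4 were the members that fell. Pdia3 (ENSMUSG00000027248), also called ERp57, works with the lectin chaperones calnexin and calreticulin and is bound to tapasin in the MHC class I peptide-loading complex. It stood at 197, 191 and 206 CPM in shCopa 1 to 3, against 795, 727 and 767 CPM in shCon 1 to 3. The groups did not overlap, and the libraries within each group were close together. The means were 198 ± 7.47 CPM in shCopa and 763 ± 34.6 CPM in shCon (SD, n = 3 each). Its log2 fold change was -1.95 ± 0.09 (SE, 95% confidence interval -2.15 to -1.74; quasi-likelihood test in edgeR, p adjusted after Benjamini-Hochberg = 3.21e-05). The call was kept under all 15 other settings, with log2 fold changes from -2.01 to -1.89. A neighbouring gene on the opposite strand, Catsper2, shares 18 of the 3139 exon bases of Pdia3 and had at most 55 counts in a library, against 4077 or more for Pdia3.

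Pdia4 (ENSMUSG00000025823), ERp72, is a larger isomerase that carries an additional catalytic domain. It stood at 101, 106 and 99.6 CPM in shCopa 1 to 3, against 157, 158 and 151 CPM in shCon 1 to 3. The groups did not overlap, and within each group the libraries were close together. The log2 fold change was -0.61 ± 0.08 (95% confidence interval -0.80 to -0.42; edgeR, adjusted p = 0.00121). It fell under all 15 other settings as well, with log2 fold changes from -0.65 to -0.56.

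Tmx1 (ENSMUSG00000021072), a membrane-anchored isomerase that acts preferentially on membrane-bound clients, was the member that rose. It stood at 63.8, 64.4 and 67.7 CPM in shCopa 1 to 3, against 52.2, 45.0 and 44.4 CPM in shCon 1 to 3. Every shCopa library was above every shCon library. The log2 fold change was 0.47 ± 0.10 (95% confidence interval 0.24 to 0.70; edgeR, adjusted p = 0.00803), and it rose under all 15 other settings, from 0.36 to 0.54.

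**Figure D1:**
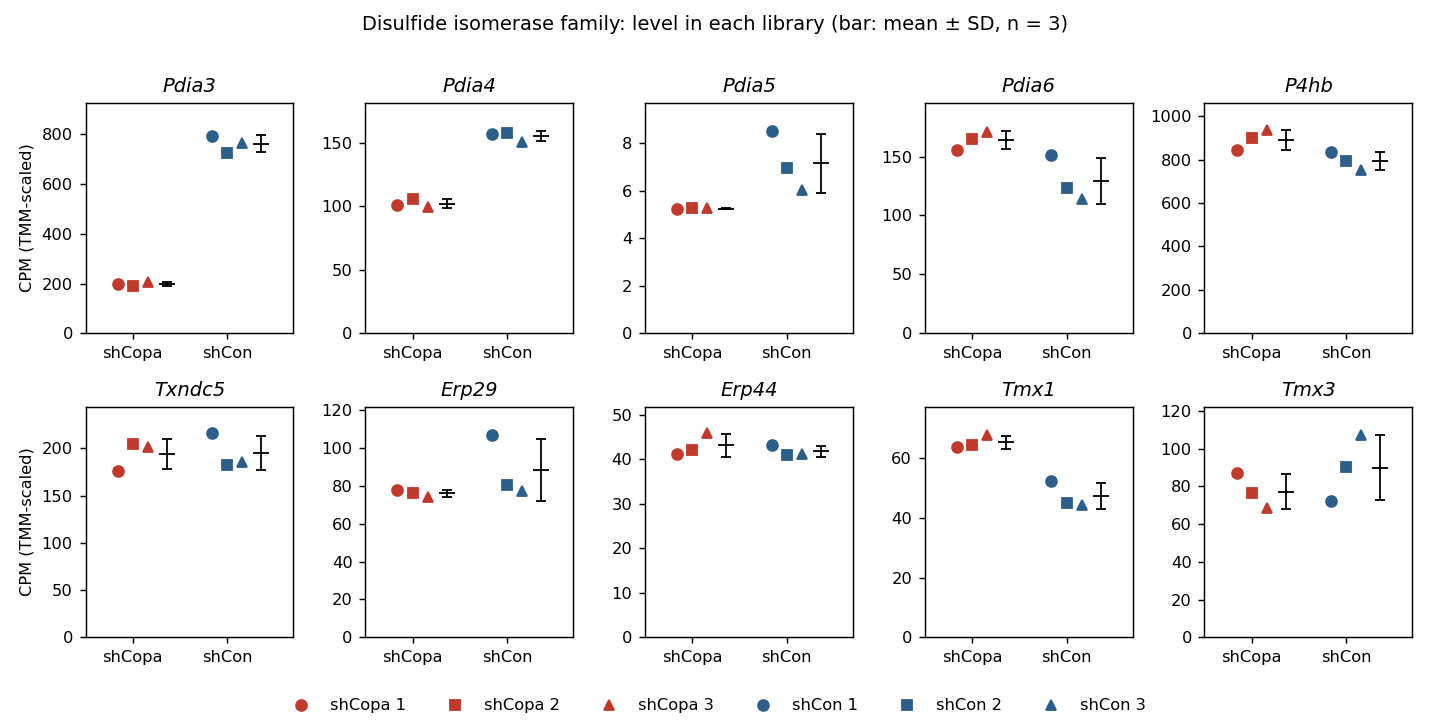
Level of each of the 10 members in CPM (vertical axes, from 0) in the shCopa libraries (red) and the shCon libraries (blue); symbols give the replicate number and black bars the mean ± SD of 3 libraries. Pdia3 lies at 191 to 206 CPM in shCopa and at 727 to 795 CPM in shCon; Pdia4 is also lower and Tmx1 higher in all shCopa libraries, and shCon 1 is the highest library for Erp29 and Pdia5.

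P4hb and Pdia6 had higher means in shCopa but did not pass the test. P4hb (ENSMUSG00000025130), the founding member PDI, is also the beta subunit of collagen prolyl 4-hydroxylase and a subunit of the microsomal triglyceride transfer protein. It was at 843, 899 and 934 CPM in shCopa 1 to 3, against 834, 792 and 754 CPM in shCon 1 to 3. The libraries did not overlap, but shCopa 1 and shCon 1 nearly met. The log2 fold change was 0.17 ± 0.09 (95% confidence interval -0.04 to 0.38; edgeR, adjusted p = 0.177). Without shCon 1 it was 0.20 ± 0.06 and passed (edgeR, adjusted p = 0.00521).

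Pdia6 (ENSMUSG00000020571), known as P5, acts together with the chaperone BiP and binds the stress sensors IRE1 and PERK. It was at 156, 165 and 171 CPM in shCopa 1 to 3, against 151, 123 and 114 CPM in shCon 1 to 3. The shCopa libraries were all higher, with shCon 1 close below them. The log2 fold change was 0.35 ± 0.12 (95% confidence interval 0.06 to 0.63; edgeR, adjusted p = 0.0604). Without shCon 1 it was 0.47 ± 0.06 and passed (edgeR, adjusted p = 3.37e-06), and it also passed with DESeq2 (adjusted p = 0.0379) and with library totals in place of scaling factors (edgeR, adjusted p = 0.0296).

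Pdia5 (ENSMUSG00000022844), PDIR, was the least abundant member. It was at 5.22, 5.27 and 5.26 CPM in shCopa 1 to 3, against 8.50, 6.96 and 6.04 CPM in shCon 1 to 3. All shCopa libraries were lower, while the shCon libraries were spread widely. Its log2 fold change of -0.45 ± 0.17 (95% confidence interval -0.84 to -0.06) did not pass (edgeR, adjusted p = 0.0731). It passed without shCon 3, at -0.57 (edgeR, adjusted p = 0.0453), and stood at -0.31 without shCon 1.

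The remaining 4 members overlapped between the groups. Txndc5 (ENSMUSG00000038991), ERp46, which introduces disulfides rapidly, was at 176, 205 and 202 CPM in shCopa 1 to 3, against 216, 183 and 186 CPM in shCon 1 to 3. Its log2 fold change was 0.00 ± 0.11 (95% confidence interval -0.26 to 0.25; edgeR, adjusted p = 0.978). Bmp6, on the opposite strand, shares 224 of the 4492 exon bases of Txndc5, and no source says whether strand was used in counting. Bmp6 had 2109, 2122 and 1665 counts in shCopa 1 to 3, against 1477, 1580 and 1593 counts in shCon 1 to 3. Whether its reads entered the Txndc5 counts was not tested.

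Erp44 (ENSMUSG00000028343) travels between ER and Golgi and holds back ER oxidases that lack a retrieval signal of their own. It was at 41.3, 42.1 and 46.0 CPM in shCopa 1 to 3, against 43.3, 41.0 and 41.3 CPM in shCon 1 to 3, which is a narrow band in both groups. The log2 fold change was 0.04 ± 0.09 (95% confidence interval -0.16 to 0.25; edgeR, adjusted p = 0.733).

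Erp29 (ENSMUSG00000029616) has the thioredoxin-like fold but lacks the catalytic cysteine pair. It was at 77.7, 76.5 and 74.0 CPM in shCopa 1 to 3, against 107, 80.5 and 77.5 CPM in shCon 1 to 3. The higher control mean came from shCon 1: the log2 fold change of -0.22 ± 0.14 (95% confidence interval -0.53 to 0.10; edgeR, adjusted p = 0.246) became -0.06 without that library. Naa25, on the opposite strand, shares 2210 of the 9060 exon bases annotated for Erp29. It had 2916, 3114 and 2888 counts in shCopa 1 to 3, against 1103, 1627 and 1873 counts in shCon 1 to 3, so counts without strand could mix these genes.

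Tmx3 (ENSMUSG00000024614), a membrane-anchored oxidoreductase, was the most variable abundant member. It was at 86.9, 76.3 and 68.5 CPM in shCopa 1 to 3, against 72.5, 90.2 and 107 CPM in shCon 1 to 3. Here shCon 1 was the lowest control library, inside the shCopa range. The log2 fold change was -0.22 ± 0.16 (95% confidence interval -0.59 to 0.15; edgeR, adjusted p = 0.317), and without shCon 1 it was -0.35 ± 0.11 and passed (edgeR, adjusted p = 0.0309).

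As a family, 3 members had every shCopa library above every shCon library (Tmx1, Pdia6 and P4hb), against 27.2% of all genes tested. Another 3 had every shCopa library below (Pdia3, Pdia4 and Pdia5), against 26.9% of all genes tested. The median log2 fold change of the members was -0.11, and 0.00 for the 9 members other than Pdia3, beside -0.01 over all genes tested. Without shCon 1, 3 members rose (Tmx1, Pdia6 and P4hb), 3 fell (Pdia3, Pdia4 and Tmx3) and the median was 0.00. Calls were more frequent throughout that fit, with 28.3% of its genes higher and 27.0% lower, so 3 of 10 each way was near its background.

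**Figure D2:**
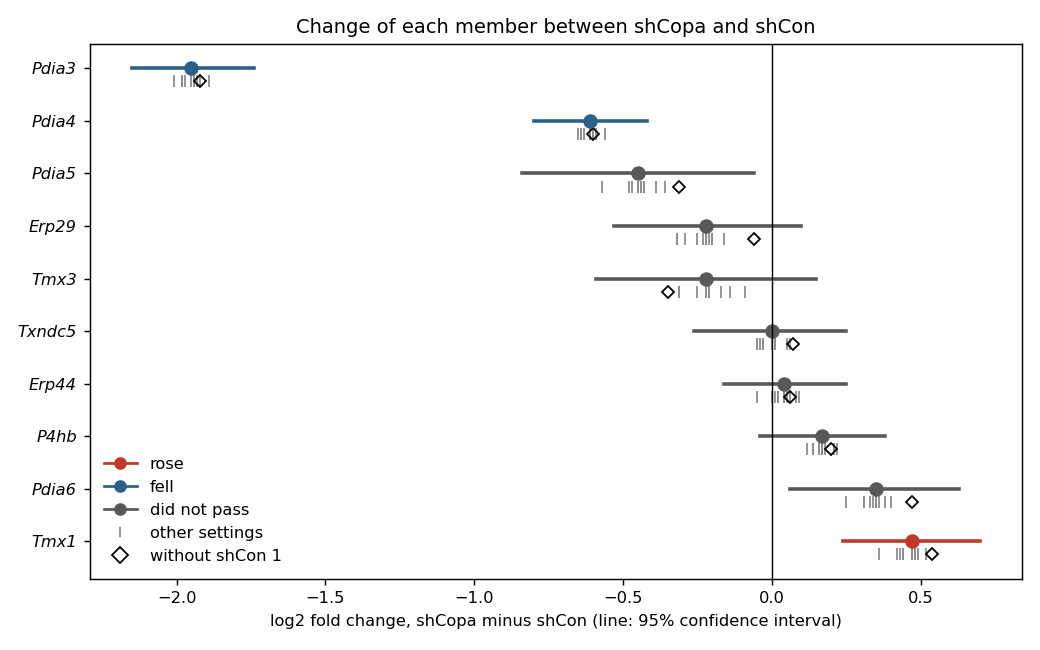
Log2 fold change of each member, shCopa minus shCon (horizontal axis), with its 95% confidence interval from the fit over all genes (line); grey ticks are the other settings and diamonds the fit without shCon 1. Pdia3 at -1.95 lies far from the other members, which span -0.61 to 0.47, and the diamonds of Pdia6, Pdia5, Erp29 and Tmx3 sit farthest from their circles.

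Levels were compared between members per transcript length, as TPM (counts over the length of the principal GENCODE M21 transcript, scaled to the same total in each library, with no TMM factor). In shCopa cells P4hb led at 782 ± 26.5 TPM, followed by Pdia6 at 189 ± 5.54, Pdia3 at 179 ± 5.98 and Txndc5 at 171 ± 11.3 TPM (SD, n = 3), where the last 3 lay close together. In shCon cells P4hb at 652 ± 38.2 TPM and Pdia3 at 648 ± 45.0 TPM (SD, n = 3) did not differ beyond their spread. They were followed by Txndc5 at 161 ± 1.97, Pdia4 at 153 ± 13.6 and Pdia6 at 139 ± 7.49 TPM. Pdia5 was lowest in both groups, at 7.28 ± 0.101 TPM in shCopa and 9.24 ± 0.794 TPM in shCon. Tmx1, Tmx3, Erp44 and Erp29 lay between 36.7 and 58.6 TPM in shCopa and between 37.6 and 46.5 TPM in shCon. The place of Erp29 depends on its transcript: with the coding transcript of 1123 bases in place of the principal one of 5204 bases, it ranked 5 of the 10 in shCopa and 3 of the 10 in shCon. On that set of lengths every TPM is rescaled, and Erp29 stood at 128 TPM in shCopa and 142 TPM in shCon, beside Txndc5 at 142 TPM in shCopa and 136 TPM in shCon.

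The make-up of the family differed between the groups. Pdia3 made up 11.1% ± 0.435 of the summed level of the 10 members in shCopa and 33.7% ± 1.06 in shCon (SD, n = 3 each). P4hb made up 48.4% ± 0.607 in shCopa and 33.9% ± 0.804 in shCon, and Pdia6 made up 11.7% ± 0.0986 in shCopa and 7.22% ± 0.720 in shCon. Shares of a sum are bound to each other, so a smaller share of Pdia3 leaves larger shares for the rest. The levels of P4hb and Pdia6 themselves did not pass the test. On the CPM scale, the 10 members summed to 1748, 1830 and 1874 CPM in shCopa 1 to 3, against 2438, 2246 and 2248 CPM in shCon 1 to 3. With Pdia3 left out, the sums were 1551, 1639 and 1668 CPM in shCopa, against 1642, 1520 and 1481 CPM in shCon, and the groups overlapped.

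**Figure D3:**
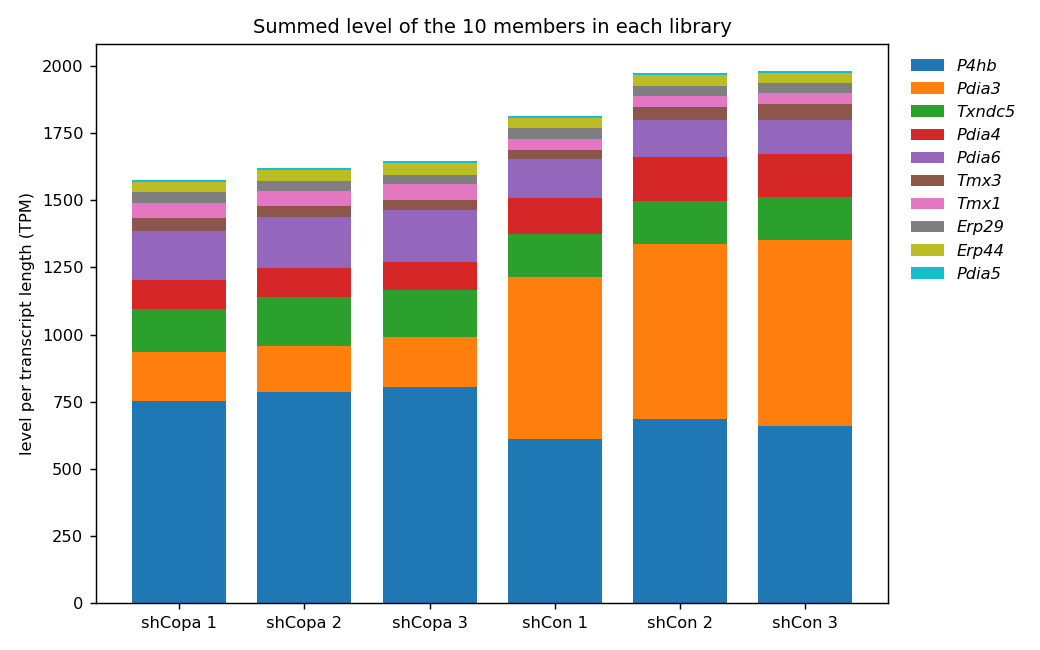
Level per transcript length (TPM, vertical axis) of the 10 members, stacked for each of the 3 shCopa and 3 shCon libraries. P4hb is the lowest block in every bar, and the Pdia3 block stands at 173 to 184 TPM in shCopa and at 602 to 692 TPM in shCon.

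Ratios of 2 transcripts within a library do not depend on how libraries are scaled, and 5 such ratios were compared. Pdia3 and calreticulin (Calr) had near-equal counts in shCon cells: 0.258, 0.235 and 0.237 counts of Pdia3 per count of Calr in shCopa 1 to 3, against 1.05, 1.02 and 1.14 in shCon 1 to 3. Against calnexin (Canx) the ratios were 0.242, 0.236 and 0.239 in shCopa, against 1.26, 0.962 and 0.998 in shCon. Every shCopa library was below every shCon library in both ratios. On the log2 scale the differences, shCopa minus shCon, were -2.13 for Pdia3 to Calr, -2.15 for Pdia3 to Canx and -2.11 for Pdia3 to P4hb. Pdia4 to P4hb differed by -0.78, and none of these 4 ratios overlapped between the groups. The ratio of P4hb to P4ha1, the catalytic alpha subunit of prolyl 4-hydroxylase, was 3.76, 3.71 and 3.65 in shCopa, against 3.70, 3.11 and 3.21 in shCon, where shCon 1 lay within the shCopa range. An exact permutation test, two-sided, gave p = 0.10 for the first 4 ratios, the smallest value 3 against 3 libraries allow, and p = 0.200 for P4hb to P4ha1 (adjusted over 5 ratios, 0.125 and 0.200).

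**Figure D4:**
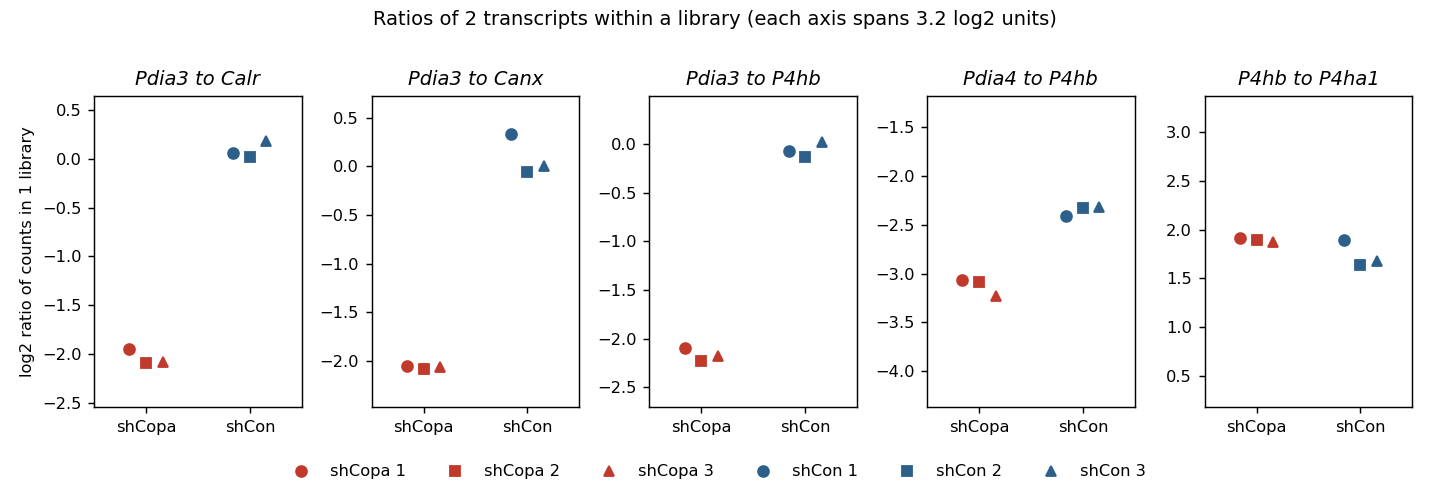
Log2 ratio of the counts of 2 transcripts within 1 library (vertical axes, each spanning the same number of log2 units) for shCopa (red) and shCon (blue) libraries, with symbols for the replicate number. The 3 ratios with Pdia3 lie near -2 in shCopa and near 0 in shCon, with differences of -2.11 to -2.15.

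The counts of the partner lists are to be read against the shares of all genes called, 18.2% higher and 18.4% lower, or 28.3% and 27.0% where shCon 1 is left out. Other disulfide isomerases, from a list of 12, held 2 that fell. Of 7 tested, 2 fell, 0 rose by edgeR (0 also at an unadjusted p under 0.05, with DESeq2 and with limma-voom) and 5 did not pass, with a median log2 fold change of -0.18 beside -0.01 over all genes tested. With DESeq2 3 fell, Txndc15 added. Its log2 fold change was -0.54, with an adjusted p of 0.0262 by DESeq2 and 0.055 by edgeR. Without shCon 1, the highest control for Txndc15, it was -0.33 ± 0.10 (edgeR, adjusted p = 0.00883). Txndc11, a membrane-bound thioredoxin-like protein, fell to 62.6% (18.9, 18.8 and 20.4 CPM in shCopa, against 30.8, 32.4 and 29.6 CPM in shCon; log2 fold change -0.68 ± 0.10, edgeR, adjusted p = 0.00164). Dnajc10 (ERdj5), a reductase that works with BiP in ER-associated degradation, fell with a log2 fold change of -0.34 ± 0.08 (edgeR, adjusted p = 0.0133), a call lost when any 1 shCopa library was left out and with the replicate number as a block (edgeR, adjusted p = 0.0634). Without shCon 1, 1 of the 7 rose and 3 fell. The 5 that were not tested were Pdia2, Pdilt, Erp27, Agr2 and Agr3, with 0 to 4 counts per library. Agr2, an isomerase of mucus-secreting epithelia, had no count in any of the 6 libraries, which allows at most 0.123 to 0.152 CPM per library by counting error alone.

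Among genes of ER oxidation and related redox proteins, the 2 ER oxidoreductin genes changed in opposite directions. In the list of 12, 11 were tested, of which 4 fell, 1 rose and 6 did not pass (median log2 fold change -0.15), against 18.4% of all genes lower and 18.2% higher. Ero1l, the ubiquitous oxidase that recharges P4hb, rose 1.27-fold, at 112, 113 and 120 CPM in shCopa 1 to 3, against 79.3, 95.3 and 98.1 CPM in shCon 1 to 3 (log2 fold change 0.34 ± 0.11, edgeR, adjusted p = 0.0398). This call was lost when any 1 shCopa library or shCon 2 was left out, where edgeR's adjusted p ran from 0.0729 to 0.141. It was also lost with the replicate block (edgeR, adjusted p = 0.0771), with no filter (edgeR, adjusted p = 0.0823) and at the threshold of 0.01. Its paralog Ero1lb fell to 39.8%, at 3.98, 4.80 and 4.80 CPM in shCopa, against 10.6, 12.0 and 11.5 CPM in shCon (log2 fold change -1.33 ± 0.14, edgeR, adjusted p = 0.000504). Prdx4, the ER peroxiredoxin that Erp44 holds back and that can also charge isomerases, fell to 62.9% (15.6, 15.2 and 18.5 CPM in shCopa, against 27.0, 27.5 and 23.8 CPM in shCon). The sulfhydryl oxidases Qsox1 and Qsox2 also fell, with log2 fold changes of -0.54 ± 0.13 and -0.53 ± 0.11. The call of Qsox1 was lost with the replicate block (edgeR, adjusted p = 0.0503) and without shCopa 1 (0.0662) or shCopa 2 (0.0625). Without shCon 1, 5 of these 11 rose and 4 fell, and the median was 0.16, in a fit that called 28.3% of all genes higher and 27.0% lower.

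None of the lectin-cycle partners of Pdia3 passed the test. Of 9 genes of the calnexin and calreticulin cycle, 8 were tested and 0 passed by edgeR, by DESeq2 or by limma-voom (0 at an unadjusted p under 0.05 in edgeR), with a median log2 fold change of -0.01. Canx was at 813, 812 and 861 CPM in shCopa, against 633, 755 and 769 CPM in shCon (log2 fold change 0.20 ± 0.10, edgeR, adjusted p = 0.159). Calr was at 762, 814 and 870 CPM in shCopa, against 761, 714 and 674 CPM in shCon (0.19 ± 0.09, edgeR, adjusted p = 0.162). Without shCon 1, 2 of the 8 rose (Calr and Prkcsh) and 3 fell (Uggt1, Uggt2 and Ganab), and 2 rose and 2 fell after offsets for GC content and length. In the peptide-loading list, where Pdia3 serves tapasin, 2 of 6 genes rose (Tap1, log2 fold change 1.27 ± 0.10, and B2m, 1.08 ± 0.13), 1 fell (Tap2, -0.45 ± 0.11) and 3 did not pass. Tapbp, which encodes tapasin, was at 542, 598 and 562 CPM in shCopa, against 598, 480 and 444 CPM in shCon (0.16 ± 0.13, edgeR, adjusted p = 0.351), and it passed without shCon 1 (0.29 ± 0.06, edgeR, adjusted p = 0.000295). The call of Tap2 was lost with the replicate block (edgeR, adjusted p = 0.0544) and when any 1 shCopa library was left out (0.0656 to 0.0707). Without shCon 1, 3 genes of this list rose and 2 fell.

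Among 5 enzymes that need a family member as subunit or anchor, 4 were tested. Mttp, the large subunit of the triglyceride transfer protein that pairs with P4hb, rose, at 5.76, 6.31 and 7.28 CPM in shCopa, against 3.07, 3.74 and 2.88 CPM in shCon (log2 fold change 1.00 ± 0.18, edgeR, adjusted p = 0.00464). Sumf1, a sulfatase-activating enzyme that Erp44 retains, fell (-0.53 ± 0.13, edgeR, adjusted p = 0.0177), a call lost with the replicate block (0.0536) and without shCopa 1 (0.0785) or shCopa 2 (0.0733). P4ha1 (0.01 ± 0.09) and P4ha2 (-0.05 ± 0.10) did not pass, and P4ha3 was not tested, with 6, 8 and 7 counts in shCopa, against 0, 1 and 0 counts in shCon.

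Of 13 genes of KDEL retrieval and the COPI coat, 3 rose, 3 fell and 7 did not pass (median log2 fold change 0.10), shares near those of all genes. This list holds Copa, whose fall was set by the design. Of the other coat subunits, Copz2 (-1.70 ± 0.31) and Cope (-0.74 ± 0.19) fell, and Copb1 (0.47 ± 0.09) and Arcn1 (0.38 ± 0.11) rose. The sizes of the falls of Copz2 and Cope rest in part on shCon 1. Copz2 was at 14.7, 7.51 and 7.85 CPM in shCon 1 to 3, and Cope at 94.4, 60.3 and 56.3 CPM. When any 1 shCopa library was left out, 2 rose and 2 fell: the calls of Cope (edgeR, adjusted p = 0.0693 to 0.0811) and Arcn1 (0.0906 to 0.103) were lost. Arcn1 was also lost without shCon 2 (0.0581) and with the replicate block (0.0661). Among the KDEL receptors that return isomerases to the ER, Kdelr3 rose, at 14.5, 13.0 and 14.0 CPM in shCopa, against 9.66, 7.77 and 6.70 CPM in shCon (0.78 ± 0.16, edgeR, adjusted p = 0.00782). The more abundant Kdelr1 (0.00 ± 0.11) and Kdelr2 (0.11 ± 0.12) did not pass. Without shCon 1, 6 of the 13 rose and 4 fell, where 28.3% of all genes were higher and 27.0% lower. In the list of stress sensors and chaperones, 4 of 15 rose, 2 fell and 9 did not pass (median 0.02). Hspa5, the chaperone BiP that works beside Pdia6, rose, at 1327, 1357 and 1527 CPM in shCopa, against 827, 687 and 693 CPM in shCon (0.93 ± 0.11, edgeR, adjusted p = 0.000788). Ddit3 (1.75 ± 0.21), Dnajb9 (0.58 ± 0.09) and Hsp90b1 (0.25 ± 0.08) rose, while the stress sensor Eif2ak3 (-0.72 ± 0.10) and the BiP co-chaperone Dnajb11 (-0.53 ± 0.08) fell. The call of Hsp90b1 was lost in most other settings, for example at adjusted p = 0.134 to 0.148 in edgeR when any 1 shCopa library was left out. Without shCon 1, 6 of these 15 rose and 4 fell.

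**Figure D5:**
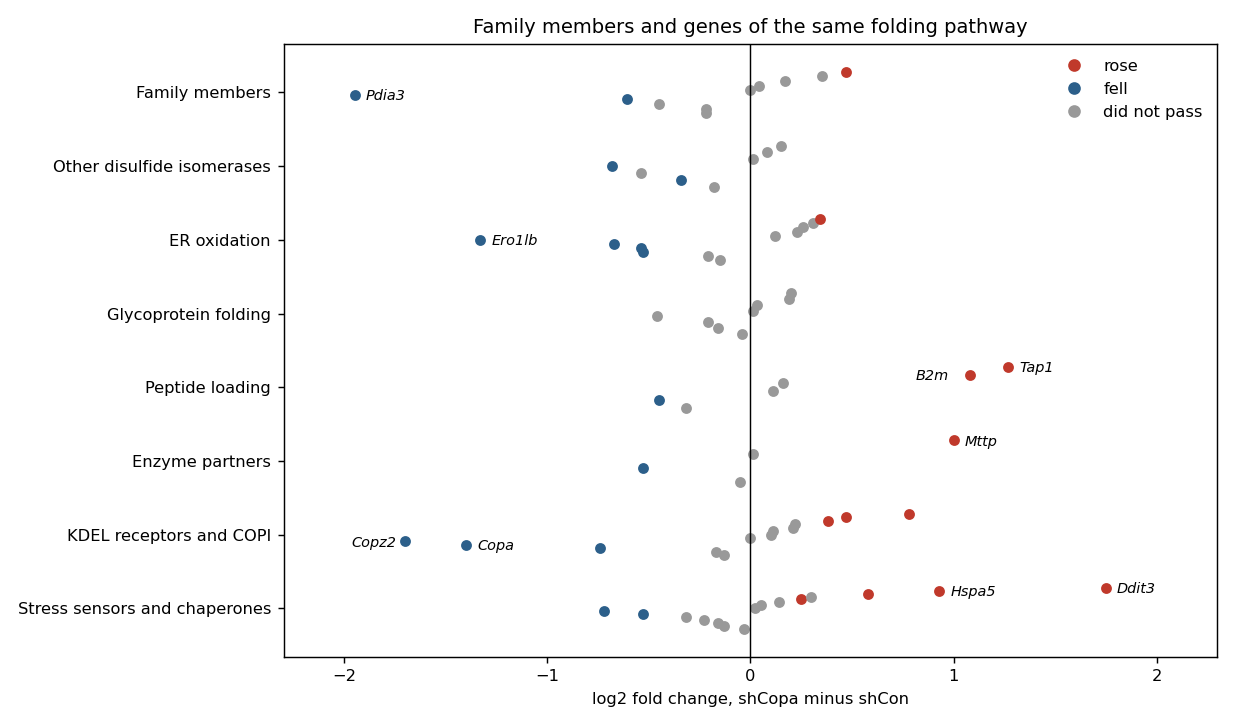
Log2 fold change, shCopa minus shCon (horizontal axis), of every tested gene in the family and in the 7 partner lists (rows); red rose, blue fell, grey did not pass, and genes beyond 0.9 in size are named. Pdia3 at -1.95 is the lowest point of all lists, and the calnexin and calreticulin cycle stays between -0.46 and 0.20.

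The genes whose pattern over the 6 libraries was most like that of Pdia3, by root mean square distance of mean-centred log2 CPM over all genes tested, were Miga2, Selenop, Fst, Sept5 and Fmo2. Their distances were 0.0456 to 0.0886 on the log2 scale, and their log2 fold changes -1.92, -1.87, -1.97, -2.03 and -1.95. This likeness rests on 6 libraries in 2 groups and is a description of levels. For Selenop, which encodes a secreted selenoprotein, the levels were 48.6, 48.8 and 50.5 CPM in shCopa 1 to 3, against 191, 167 and 181 CPM in shCon 1 to 3.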

How the data were processed

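RNA-seq of 6 libraries of AY-mICC cells was used, 3 shCopa and 3 shCon, grouped by the sample titles. Estimated counts per Ensembl gene came as 1 table from the authors, in which 10.6% to 11.9% of a library's values were not whole. The submitters' processing notes list DESeq2, featureCounts, HTSeq, Trimmomatic and HISAT2 2.0.5 and the build GRCm39, without saying which tool gave the counts or how strand was handled. Per the labels' protocols, RNA was isolated with TRIzol and libraries were made with a standard mRNA kit and sequenced in pairs.

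Symbols came from GENCODE M21 for 52081 of 55414 identifiers; for a symbol on several identifiers, the one with the higher mean count was taken. After rounding, edgeR 4.0.16 (R 4.3.3) was run with TMM factors, filterByExpr and robust quasi-likelihood fits; p-values were adjusted after Benjamini-Hochberg over the 14807 genes tested, and an adjusted p under 0.05 was called. SEs came from the fold change and its F statistic. Alternatives used limma 3.58.1 (voom), DESeq2 1.42.0, other scaling and filters, a replicate block, a threshold of 0.01 and each library left out. Lengths, exon overlaps and GC content came from GENCODE M21 (GRCm38), which was used for these and for names only. A length was found for 99.8% of tested genes. The steps were tested on simulated data. There, edgeR called 5 of 67 genes changed 1.5-fold, 46 of 67 changed 2-fold and 62 of 66 changed 4-fold. Of the 117 calls, 4 were false. The simulation changed fewer genes than were called in the data, so recovery may differ here. A member or list gene that did not pass is therefore not shown to be unchanged. Intervals for counts and floors cover counting error only. The members, lists and tests were chosen with earlier results of these data known. All 10 members were named; list genes were named by smallest adjusted p, up to 5 a list, with Copa, Hspa5, Calr, Canx, P4ha1, Ero1l and Prdx4; list genes named beyond that (Tapbp, P4ha2, Hsp90b1, Arcn1, Kdelr1, Kdelr2, genes called without shCon 1 and genes too low to test) were chosen after their values were seen. Replicate pairs were compared by a chi-square of their counts, and no pair agreed within sampling noise (4.35 or more per degree of freedom). The value was 75.7 for shCon 1 with shCon 2 and 87.3 for shCon 1 with shCon 3. The other pairs within a group stood at 4.35 to 7.91. Python 3.11.15 drew the figures.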

Additional observations from a re-analysis of the deposited data

How the results depend on the processing

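Pdia3 and Pdia4 fell and Tmx1 rose in all 15 other settings run, and Txndc5, Erp29 and Erp44 passed in none of them. Members that rose numbered 2 with library totals only and 2 with DESeq2 (Pdia6 added). With per-library offsets fitted on GC content and transcript length, a setting chosen after seeing the data, 3 rose (Pdia6 and P4hb added) and 4 fell (Pdia5 and Tmx3 added), while over all genes 3495 (23.6%) were higher and 3597 (24.3%) lower. With 1 library left out, 1 to 3 members rose and 2 to 3 fell, with the upper ends without shCon 1 for rises and without shCon 1 or shCon 3 for falls. The family's median of -0.11 was -0.06 with library totals only, -0.14 with no filter, -0.10 with 1 CPM in 3 libraries, with limma-voom and with the replicate block, -0.18 with the offsets, and -0.14 to 0.00 with 1 library left out. Over all genes, 1590 were higher and 1587 lower at an adjusted p under 0.01, and with 1 library left out 1778 to 4317 were higher and 1755 to 4122 lower, most without shCon 1 (28.3% and 27.0% of its genes). Uggt1, at 0.01 over all libraries, turned to -0.13 without shCon 1. With library totals only, 3013 genes were higher and 2422 lower, against 2691 and 2720, and the median of all genes was 0.04. The cause of these shifts was not tested.

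No sign was seen that the replicate numbers shared by the groups pair the samples. Deviations of same-numbered libraries from their group means correlated at -0.16, -0.06 and -0.11, and 0 of 6 libraries correlated best with its own number. With so few libraries a group, and shCon 1 apart from the other controls, these correlations cannot exclude a pairing. With the replicate block the same counts of members rose and fell, 1 and 2, while 1964 genes were higher and 1939 lower over all genes; among list genes the block ended the calls of Dnajc10, Ero1l, Qsox1, Tap2, Sumf1, Arcn1 and Hsp90b1. Shares of the family per length used 1 transcript a gene; with the shortest coding transcript of at least 1000 bases, Erp29 was at rank 5 in shCopa and rank 3 in shCon, against ranks 9 and 7 with principal transcripts. At these depths the shallowest member, Pdia5, had 104 to 183 counts a library, which limits its precision.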
